A study of Mus musculus with 20 samples.

Results

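The 9 genes followed here make, remodel, unload or take up lipoproteins. Their mRNA was measured in mouse liver after IL-1β, a cytokine that starts inflammatory signaling. They were taken by symbol from the tables of counts. The group holds the lipases Lipc, Lipg and Lpl, the lipase inhibitor Angptl4 and the plasma proteins Lcat and Pltp. It also holds the assembly protein Mttp and the receptors Scarb1 and Lrp1. All 9 were found once in each of the 6 tables, among 37681 genes listed and 15578 tested. The animals were wild-type male mice aged 12 weeks, given as C57/BL6 in the strain label and as C57/B6J in the growth protocol. Of these, 5 received IL-1β at 20 µg/kg (ILB_9577, ILB_9578, ILB_9579, ILB_9582 and ILB_9583) and 5 received saline (UNT_9574, UNT_9575, UNT_9576, UNT_9580 and UNT_9584, called untreated), and liver was taken 4 hours after the intraperitoneal injection. RNA of each liver was made into 1 Illumina and 1 Ion Torrent library, and reads of each platform were aligned with STAR, GSNAP or STAR followed by Bowtie2. The 6 tables are thus repeated measurements of the same 10 livers and not further animals.

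Lipoproteins carry triglyceride and cholesterol through blood. The liver loads triglyceride onto apolipoprotein B with the help of Mttp and secretes the product as VLDL. Lipoprotein lipase (Lpl), hepatic lipase (Lipc) and endothelial lipase (Lipg) then hydrolyze the lipids of circulating particles, and Angptl4 inhibits lipoprotein lipase. Lcat esterifies cholesterol on HDL and Pltp moves phospholipids between particles. Scarb1 takes up cholesteryl ester from HDL and Lrp1 clears remnant particles.

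At 4 hours after IL-1β, the mRNA of Mttp was 0.46 times its untreated level in the Illumina data aligned with STAR, that of Scarb1 was 1.62 times and that of Lcat 1.26 times the untreated level. These were the 3 of 9 genes with an adjusted p below 0.05 by edgeR, 2 of them higher and 1 lower, while 45.7% of all genes tested passed (22.7% higher and 22.9% lower). Called genes made up 47.5% (GSNAP) and 47.4% (STAR + Bowtie2) of the other Illumina tables and 42.1% (STAR), 46.4% (GSNAP) and 46.7% (STAR + Bowtie2) of the Ion Torrent tables. The treated and untreated mice did not overlap for these same 3 genes with Illumina STAR, against 33.9% of all genes, and for Mttp and Scarb1 with Ion Torrent STAR, against 31.1%. Mttp and Scarb1 had an edgeR adjusted p below 0.05 in all 6 tables with the direction unchanged, as 34.9% of all genes did. The change of Lcat passed the test only in the 3 Illumina tables. The median log2 fold change of the 9 genes was 0.33 with Illumina STAR and -0.02 with Ion Torrent STAR, against 0.00 over all genes tested in both tables. In bulk liver, fewer cells of a type and less RNA per cell cannot be told apart.

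Promoter sequence is shown for the gene with the largest change and for a lipase with a motif in its window. The RefSeq promoter table (GRCm38.p6) held windows for Lipc, Lcat, Pltp, Mttp and Lrp1 of the 9 genes. Each window runs from 250 bases before to 50 bases after a transcript start. Mttp has 2 annotated starts 12011 bases apart. The first window lies at the downstream start and was read from NCBIM37 (chr3:137794292-137794591, minus strand), the build of the deposited counts. The second lies at the upstream start in RefSeq (GRCm38.p6 chr3:138143369-138143668, minus strand). The third is that of Lipc (GRCm38.p6 chr9:70934759-70935058, minus strand). Capitals mark every match to the motifs searched.
Mttp, downstream start: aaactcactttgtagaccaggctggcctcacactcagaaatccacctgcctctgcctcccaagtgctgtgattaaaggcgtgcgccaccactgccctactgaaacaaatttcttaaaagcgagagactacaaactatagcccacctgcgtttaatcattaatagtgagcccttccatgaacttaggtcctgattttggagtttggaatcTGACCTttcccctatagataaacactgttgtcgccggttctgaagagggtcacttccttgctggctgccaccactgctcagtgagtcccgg
Mttp, upstream start: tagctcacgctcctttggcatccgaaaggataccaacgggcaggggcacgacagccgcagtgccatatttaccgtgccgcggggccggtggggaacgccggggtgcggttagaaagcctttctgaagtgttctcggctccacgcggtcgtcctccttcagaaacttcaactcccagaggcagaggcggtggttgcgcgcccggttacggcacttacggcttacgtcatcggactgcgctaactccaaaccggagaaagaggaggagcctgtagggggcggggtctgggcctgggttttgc
Lipc: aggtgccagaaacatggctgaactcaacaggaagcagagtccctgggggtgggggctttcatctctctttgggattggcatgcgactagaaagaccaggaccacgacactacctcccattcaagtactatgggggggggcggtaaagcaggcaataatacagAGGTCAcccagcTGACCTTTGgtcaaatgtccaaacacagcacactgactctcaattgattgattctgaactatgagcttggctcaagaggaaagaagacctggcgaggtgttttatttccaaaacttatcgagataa

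Both strands were searched for AGGTCA (a nuclear receptor hexamer), CAAAGNNCA (the core of an HNF4 element), GTTAAT (part of the HNF1 site), TTGCNNAA (C/EBP), GGGANTTTC (NF-kB), TCACNCCAC (a sterol element) and TATAAA. The downstream window of Mttp held the hexamer, on the strand opposite to the one printed, at position -41 counted from the start. The upstream window held none of the 7. The window of Lipc held the hexamer at -88 and, on the other strand, at -76, where it overlaps the HNF4 core. Of 32544 promoter windows of this length, 16.2% held the hexamer, 6.38% the HNF4 core, 7.13% the HNF1 letters, 10.8% C/EBP, 1.1% NF-kB, 1.24% the sterol element and 13.6% TATAAA. The windows of Lcat and Lrp1 and a second window of Lipc held no match, and that of Pltp held a C/EBP match at -161 and TATAAA at 37. The hexamer was added to the motifs with the sequences in view.

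Levels are given as CPM, counts scaled to a common library total after TMM, with the SD over 5 mice. Per kilobase of exon, Lcat was the most abundant of the 9 in untreated liver with Illumina STAR, at 234.9 ± 14.2 CPM per kb. It was followed by Mttp at 98.2 ± 11.5, Lipc at 63.8 ± 5.73, Lrp1 at 38.4 ± 9.16 and Angptl4 at 37.1 ± 15.0 CPM per kb. Scarb1 stood at 19.0 ± 3.23, Pltp at 16.4 ± 6.65, Lipg at 5.31 ± 2.85 and Lpl at 2.71 ± 1.05 CPM per kb. The untreated ranges of neighbors in this order overlapped for Lrp1 and Angptl4, for Scarb1 and Pltp, for Pltp and Lipg, and for Lipg and Lpl. After IL-1β the level of Mttp was 45.4 ± 5.72 CPM per kb. The means of Lipc (54.7 ± 6.61), Angptl4 (49.5 ± 11.01) and Lrp1 (48.3 ± 6.24) were above it. The treated range of Mttp, 37.1 to 53.2 CPM per kb, overlapped that of each of them. Ion Torrent STAR gave Pltp a higher untreated level per kilobase than Scarb1 (31.2 ± 16.0 and 25.3 ± 1.72 CPM per kb) and otherwise the same order. All reads of a gene were set against the merged length of its exons, from 1342 bases for Lcat to 17717 for Lrp1. For Scarb1 this length was 6291 bases over 10 transcripts, while its coding transcripts held 2762 distinct 50-base words. Its place in the order therefore depends on the length used.

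**Figure D1:**
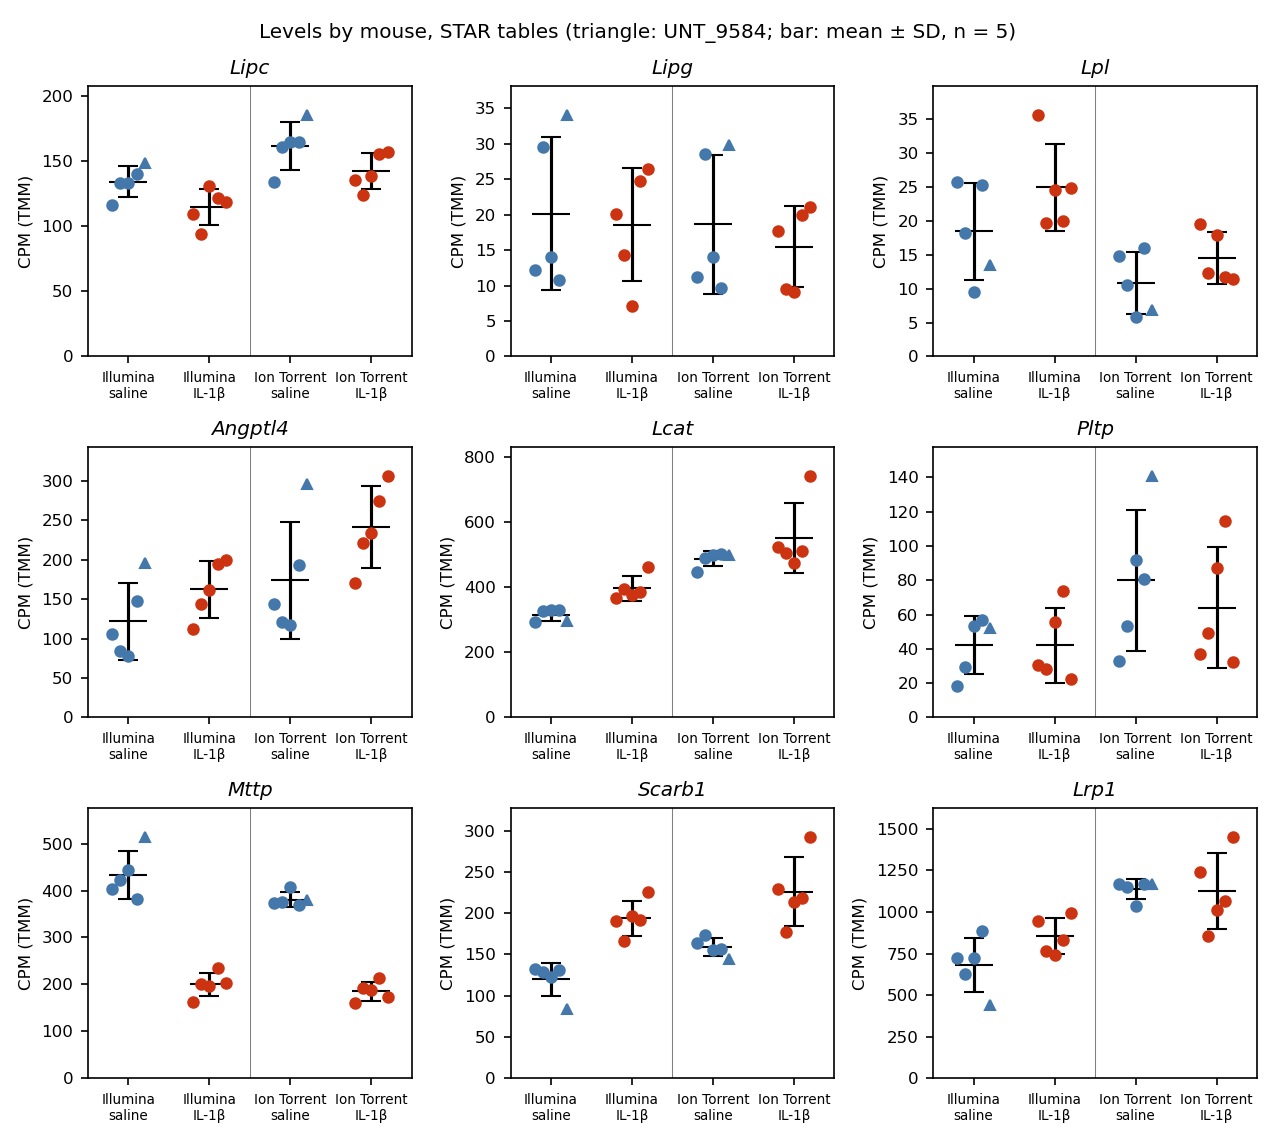
TMM-scaled CPM of the 9 genes in each mouse (blue, saline; red, IL-1β; triangle, mouse UNT_9584) in the Illumina and Ion Torrent STAR tables, with the mean and SD of 5 mice as bars. The groups of Mttp and Scarb1 are apart on both platforms, those of Lcat on Illumina only, and those of the other 6 genes overlap.

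The libraries of a single untreated mouse, UNT_9584, bear on several of the values below. The paper also found its counts to correlate least between the platforms, and its Ion Torrent read lengths to be shifted. It proposes that such differences in read length could add technical variability. Whether they bear on the genes here was not tested. Across 8699 genes, the departures from the treatment mean in the Illumina and the Ion Torrent library of an animal correlated at 0.679 to 0.805 for 9 mice and at 0.230 for mouse UNT_9584. The Illumina library of UNT_9584 correlated more with the Ion Torrent library of another mouse, at 0.350, than with its own, which was so for none of the other 9. With Illumina STAR the effect of Mttp was -1.05 without it, that of Scarb1 0.59 and that of Lcat 0.31, each with an edgeR adjusted p below 0.05.

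Hepatic lipase, Lipc (chr9:70645936-70800033 on NCBIM37, minus strand, protein coding), was lower after IL-1β by a margin that depended on scaling and test. Untreated mice had 116.0 (UNT_9574), 133.2 (UNT_9575), 132.9 (UNT_9576), 140.1 (UNT_9580) and 148.7 (UNT_9584) CPM with Illumina STAR. IL-1β mice had 109.7 (ILB_9577), 94.1 (ILB_9578), 130.7 (ILB_9579), 122.0 (ILB_9582) and 118.4 (ILB_9583) CPM. The groups overlapped, but none of the 5 treated mice exceeded the untreated median. The log2 fold change was -0.22 ± 0.10 (SE), with an adjusted p of 0.0957 by edgeR, and it lay between -0.19 and -0.23 in all 6 tables without passing the test. The re-sampled counts gave another call: they ran from 954 to 1316 in treated and from 1393 to 1600 in untreated mice, with no overlap. On these counts the two-sided rank-sum test, the test of the study's methods, had adjusted p-values of 0.0304 to 0.0413 over the 6 tables, where 38.1% (STAR), 40.1% (GSNAP) and 39.8% (STAR + Bowtie2) of all genes passed with Illumina and 35.7%, 38.8% and 38.6% with Ion Torrent. Over 9278 genes averaging 50 counts or more, the median log2 fold change shifted from 0.03 with TMM to -0.14 on the re-sampled counts. Relative to this median, Lipc stood at -0.26 with TMM and at -0.25 on the re-sampled counts. Under TMM the calls of all genes were 49.8% higher, and on the re-sampled counts 34.9%.

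Endothelial lipase, Lipg (chr18:75098976-75120917, minus strand), differed more between mice than between treatments. Its Illumina STAR levels in untreated mice were 12.2 (UNT_9574), 29.4 (UNT_9575), 14.1 (UNT_9576), 10.8 (UNT_9580) and 34.0 (UNT_9584) CPM. IL-1β mice had 20.1 (ILB_9577), 14.3 (ILB_9578), 7.15 (ILB_9579), 24.8 (ILB_9582) and 26.5 (ILB_9583) CPM. The treated mice thus lay mostly inside the untreated range, which spans 3.14 times from lowest to highest. Its log2 fold change was -0.11 ± 0.35 (SE; 95% interval -0.86 to 0.64; edgeR adjusted p = 0.846). It was 0.16 without mouse UNT_9584, and leaving out UNT_9575 or ILB_9579 also turned its sign.

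Lipoprotein lipase, Lpl (chr8:71404390-71431347, plus strand), was the gene with the lowest level per kilobase of the 9. Illumina STAR gave 25.6 (UNT_9574), 18.2 (UNT_9575), 9.53 (UNT_9576), 25.3 (UNT_9580) and 13.5 (UNT_9584) CPM in untreated mice. IL-1β mice had 35.6 (ILB_9577), 19.6 (ILB_9578), 24.5 (ILB_9579), 20.0 (ILB_9582) and 24.9 (ILB_9583) CPM. All 5 treated mice exceeded the untreated median, and only ILB_9577 exceeded every untreated mouse. This gave a log2 fold change of 0.43 ± 0.24 (SE; edgeR adjusted p = 0.161), which was between 0.43 and 0.55 in the 6 tables, with no call.

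Angptl4 (chr17:33910695-33918520, minus strand) had 1 untreated mouse at the level of the highest treated mice. Untreated levels with Illumina STAR were 105.2 (UNT_9574), 83.6 (UNT_9575), 77.6 (UNT_9576), 147.1 (UNT_9580) and 195.3 (UNT_9584) CPM. Levels after IL-1β were 112.5 (ILB_9577), 144.0 (ILB_9578), 162.1 (ILB_9579), 194.9 (ILB_9582) and 199.2 (ILB_9583) CPM. With 10 mice the log2 fold change was 0.42 ± 0.23 (SE; edgeR adjusted p = 0.157). It was 0.65, with an edgeR adjusted p of 0.0155, without mouse UNT_9584. Leaving out UNT_9576 instead gave 0.29 (edgeR adjusted p = 0.325). Mouse UNT_9580 also exceeded ILB_9577 and ILB_9578. The Ion Torrent library of UNT_9584 was high as well, at 295.7 CPM against 117.5 to 193.0 CPM in the other untreated mice. Without UNT_9584 the Ion Torrent effect was 0.75 (edgeR adjusted p = 0.00263), against 0.47 (adjusted p = 0.0985) with it. The lowest Ion Torrent effect with 1 mouse left out was 0.36.

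Lpl, Lipg, Angptl4 and Pltp varied widely among untreated mice. Their coefficients of variation were 38.7%, 53.6%, 40.5% and 40.4% with Illumina STAR, against a median of 14.2% over 8699 genes with at least 5 CPM on both platforms. Of these genes, 96.8% had a lower coefficient than Lpl, the least variable of the 4. The order of mice was shared by the platforms: of 20 pairs of mice within a treatment, all 20 stood in the same order for Lipg and for Angptl4, against a median of 14 over these genes. It was 16 for Pltp and 15 for Lpl. A mouse's libraries share their RNA, so this describes the livers and not the treatment.

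**Figure D2:**
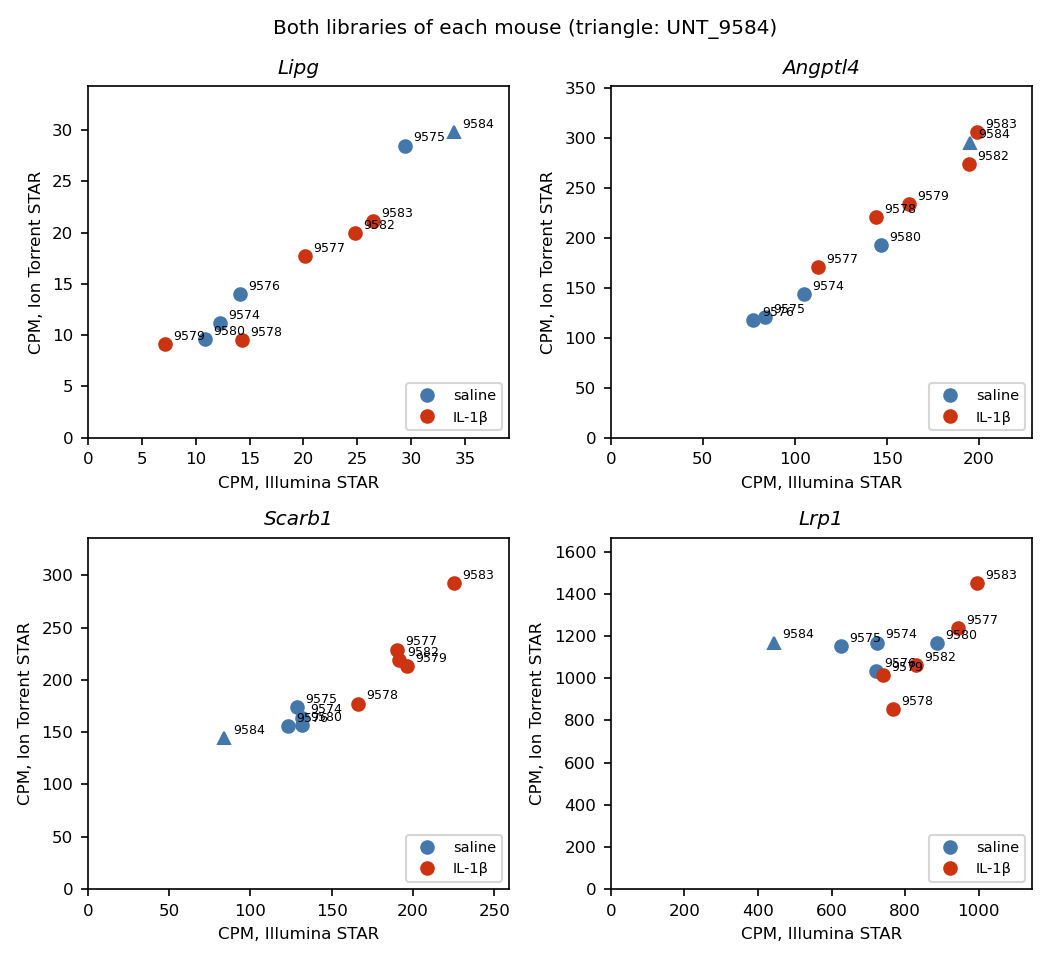
CPM of Lipg, Angptl4, Scarb1 and Lrp1 in the Illumina library (horizontal) and the Ion Torrent library (vertical) of each mouse, STAR tables. Mice keep their order within a treatment for Lipg and Angptl4, and mouse UNT_9584 (triangle) is low for Lrp1 on Illumina at 442.9 CPM but not on Ion Torrent at 1170 CPM.

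Lcat (chr8:108463451-108467282, minus strand), the cholesterol-esterifying enzyme of HDL, rose slightly in the Illumina data. Untreated mice had 293.8 (UNT_9574), 326.0 (UNT_9575), 330.4 (UNT_9576), 330.9 (UNT_9580) and 295.3 (UNT_9584) CPM with STAR. IL-1β mice had 367.0 (ILB_9577), 394.9 (ILB_9578), 377.8 (ILB_9579), 385.2 (ILB_9582) and 463.4 (ILB_9583) CPM. Every treated mouse exceeded every untreated one, as for 17.6% of all genes. Its log2 fold change was 0.34 ± 0.09 (SE; edgeR adjusted p = 0.00847). On the re-sampled counts the groups overlapped, the rank-sum test gave an adjusted p of 0.0722, and edgeR without TMM gave 0.182. With Ion Torrent STAR, untreated mice had 447.4 (UNT_9574), 490.3 (UNT_9575), 499.0 (UNT_9576), 503.7 (UNT_9580) and 500.7 (UNT_9584) CPM. Treated mice had 523.2 (ILB_9577), 505.2 (ILB_9578), 475.5 (ILB_9579), 511.9 (ILB_9582) and 742.4 (ILB_9583) CPM. Of the treated mice, 4 of 5 were above all untreated mice, ILB_9583 by far, and the log2 fold change of 0.18 ± 0.12 (SE) had an edgeR adjusted p of 0.262. It was 0.058 (edgeR adjusted p = 0.662) without ILB_9583.

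Pltp (chr2:164665018-164683211, minus strand), the phospholipid transfer protein, showed no called difference in any table. Illumina STAR levels were 18.5 (UNT_9574), 29.6 (UNT_9575), 53.5 (UNT_9576), 56.7 (UNT_9580) and 52.3 (UNT_9584) CPM in untreated mice. After IL-1β they were 30.4 (ILB_9577), 28.3 (ILB_9578), 55.4 (ILB_9579), 74.0 (ILB_9582) and 22.2 (ILB_9583) CPM. Of the treated mice, 1 (ILB_9582) lay above all untreated mice and the other 4 lay inside the untreated range. The 95% interval of the log2 fold change was -0.71 to 0.71, which does not show that the level was the same. With Ion Torrent STAR the log2 fold change was -0.32 ± 0.35 (SE; edgeR adjusted p = 0.509). There UNT_9584 had 140.8 CPM, against 33.1 to 91.9 CPM in the other untreated mice, and the log2 fold change without it was -0.012 (edgeR adjusted p = 1). Pltp overlaps Ctsa on the opposite strand over 495 exonic bases, 19.3% of its exons, and 12.1% of its 50-base words occur in another gene. The words were matched on both strands, so both values can come from the same overlap. The paper describes both kinds of library as strand-specific. Whether reads of Pltp were split in the counting was not tested.

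Mttp (chr3:137752819-137806352, minus strand), the microsomal triglyceride transfer protein, fell in every table. The untreated levels with Illumina STAR were 404.0 (UNT_9574), 423.2 (UNT_9575), 443.3 (UNT_9576), 381.2 (UNT_9580) and 514.0 (UNT_9584) CPM. The levels after IL-1β were 163.4 (ILB_9577), 200.9 (ILB_9578), 197.5 (ILB_9579), 234.4 (ILB_9582) and 203.7 (ILB_9583) CPM. The highest treated mouse, at 234.4 CPM, was below the lowest untreated mouse, at 381.2 CPM. Groups were apart in this direction for 16.2% of all genes tested. The log2 fold change was -1.11 ± 0.11 (SE; 95% interval -1.36 to -0.87; edgeR adjusted p = 1.63e-06). Among 9278 genes averaging 50 counts or more, 5.98% had a lower log2 fold change. With Ion Torrent STAR, untreated mice had 372.6 (UNT_9574), 374.9 (UNT_9575), 407.8 (UNT_9576), 369.1 (UNT_9580) and 380.2 (UNT_9584) CPM. Treated mice had 159.6 (ILB_9577), 192.0 (ILB_9578), 188.2 (ILB_9579), 214.0 (ILB_9582) and 173.8 (ILB_9583) CPM. The groups were again apart, and the log2 fold change was -1.04 ± 0.10 (SE; edgeR adjusted p = 3.42e-07). Over the 6 tables and the alternatives run on the Illumina STAR data it lay between -1.29 and -1.04, and with 1 mouse left out of the Ion Torrent STAR table between -1.08 and -0.99, with a call each time. The counts join transcripts from both starts, so the drop cannot be assigned to either.

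Scarb1 (chr5:125757457-125821464, minus strand), the HDL receptor, rose on both platforms. The untreated levels with Illumina STAR were 131.9 (UNT_9574), 128.5 (UNT_9575), 123.0 (UNT_9576), 131.7 (UNT_9580) and 84.0 (UNT_9584) CPM. The levels after IL-1β were 190.2 (ILB_9577), 166.3 (ILB_9578), 196.4 (ILB_9579), 191.6 (ILB_9582) and 225.4 (ILB_9583) CPM. The groups did not overlap, and mouse UNT_9584 lay well below the other untreated mice. The log2 fold change was 0.69 ± 0.13 (SE; 95% interval 0.43 to 0.96; edgeR adjusted p = 0.000363), and 0.59 without UNT_9584. With Ion Torrent STAR, untreated mice had 164.0 (UNT_9574), 173.9 (UNT_9575), 155.6 (UNT_9576), 156.9 (UNT_9580) and 144.7 (UNT_9584) CPM. Treated mice had 228.9 (ILB_9577), 177.3 (ILB_9578), 213.1 (ILB_9579), 218.9 (ILB_9582) and 292.2 (ILB_9583) CPM. Mouse ILB_9578 was close to the highest untreated mouse, and the log2 fold change was 0.51 ± 0.12 (SE; edgeR adjusted p = 0.00239). The rank-sum test on the re-sampled Ion Torrent counts gave adjusted p-values of 0.0771 (STAR), 0.0710 (GSNAP) and 0.0714 (STAR + Bowtie2). In the Ion Torrent GSNAP table, where 33.9% of all genes had groups apart, those of Scarb1 overlapped, with a log2 fold change of 0.49 (edgeR adjusted p = 0.00416).

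Lrp1 (chr10:126975217-127058204, minus strand), the remnant receptor with the longest transcript of the 9, had estimates of opposite sign on the platforms, neither of them called. Untreated mice had 723.9 (UNT_9574), 624.9 (UNT_9575), 721.0 (UNT_9576), 886.1 (UNT_9580) and 442.9 (UNT_9584) CPM with Illumina STAR. IL-1β mice had 942.5 (ILB_9577), 767.5 (ILB_9578), 740.0 (ILB_9579), 829.3 (ILB_9582) and 995.6 (ILB_9583) CPM. All 5 treated mice exceeded the untreated median, and 2 of them every untreated mouse. The log2 fold change was 0.33 (edgeR adjusted p = 0.0995), and 0.21 without UNT_9584. With Ion Torrent STAR, the untreated mice lay within 1034 to 1170 CPM and the treated mice within 854.2 to 1450 CPM. The treated mice thus spread to both sides of the untreated ones, and the log2 fold change was -0.02 ± 0.13 (SE; edgeR adjusted p = 0.968).

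**Figure D3:**
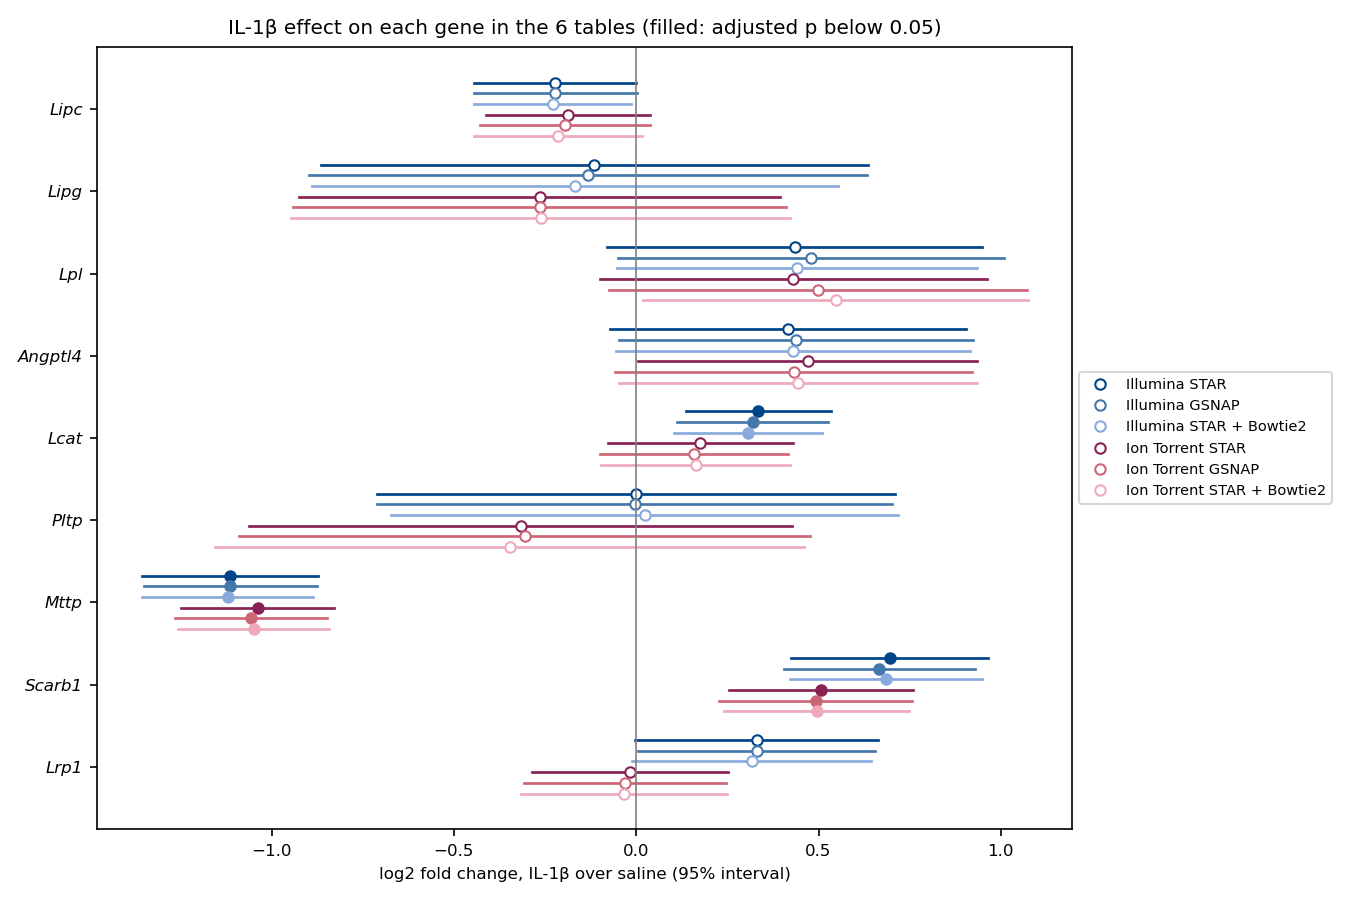
Log2 fold change of each gene, IL-1β over saline, with its 95% interval by edgeR in the 6 tables; filled points have an adjusted p below 0.05. Mttp and Scarb1 are filled in all 6 tables, Lcat in the 3 Illumina tables, and the other 6 genes in none.

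Whether the effect of IL-1β depended on the platform was tested with a term over the 20 STAR libraries, with the mouse as a block. Of the 9 genes, 0 passed at an adjusted p below 0.05 by edgeR, where 0.00642% of all genes did. At an unadjusted p below 0.05 by edgeR there were 4 of the 9 (Scarb1, Lcat, Pltp and Lrp1), against 7.0% of all genes. With limma-voom there were 2 of 9 before adjustment, against 8.17% of all genes. After adjustment there were 0 of the 9, and no gene passed at all. The largest difference was that of Lrp1, where the Ion Torrent log2 fold change was lower than the Illumina one by a fitted -0.38 ± 0.12 (SE; 95% interval -0.63 to -0.13; adjusted p = 0.653). Without UNT_9584, which was low for Lrp1 on Illumina only, it was -0.22 (edgeR adjusted p = 0.180). The fitted difference was -0.28 for Pltp (95% interval -0.55 to -0.013), -0.20 for Scarb1 (interval -0.39 to -0.0092), -0.16 for Lcat (interval -0.32 to -0.0023) and 0.09 for Mttp (interval -0.07 to 0.25). Without UNT_9584 it was -0.12 for Pltp, -0.11 for Scarb1 and 0.026 for Mttp, and without ILB_9579 it was -0.091 for Lcat.

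The genes around these 9 moved widely and in both directions. Of 68 genes tested in 5 lists, 17 rose and 27 fell with Illumina STAR (edgeR), while 45.7% of all genes tested were called. The lists were chosen with earlier results of these data known, so the comparison with all genes is not an independent one. Among cofactors, inhibitors and maturation factors of lipases, 2 of 13 rose and 6 fell (median log2 fold change -0.27). Sel1l, an adaptor of protein degradation in the endoplasmic reticulum that lipoprotein lipase needs to mature, rose by 1.03 ± 0.18 (log2, SE). Gpihbp1, which carries lipoprotein lipase to the capillary lumen, changed by -0.68 ± 0.18.

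Inside the cell, 4 of 15 lipases and lipid droplet proteins rose and 8 fell (median -0.59). Cidec, a droplet fusion protein, rose by 2.32 ± 0.28 (log2, SE). G0s2, an inhibitor of adipose triglyceride lipase, changed by -2.09 ± 0.38, and Lipe, hormone-sensitive lipase, by -1.15 ± 0.17. Of 15 receptors and their regulators, 2 rose and 5 fell (median -0.30), and Lrp8 was too low to test. Lrp4 changed by -1.78 ± 0.09 and Lrp2 by -1.49 ± 0.53, the latter from 1 to 32 reads a library.

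In the list of HDL formation and sterol efflux, 2 of 12 rose and 5 fell (median -0.25). Abca1, the exporter that lipidates apolipoprotein A-I, rose by 1.69 ± 0.18 (log2, SE). Abcg8 and Abcg5, which form the sterol exporter into bile, changed by -1.81 ± 0.18 and -0.94 ± 0.14. In the list of VLDL assembly and secretion, to which Mttp belongs by function, 7 of 13 rose and 3 fell (median 0.49). Pla2g12b, which takes part in VLDL lipidation, rose by 1.18 ± 0.11, and Sec24d, a coat protein of vesicles that leave the endoplasmic reticulum, by 1.07 ± 0.12. The GTPases that start this coat moved apart: Sar1b changed by -0.93 ± 0.11 and Sar1a by 0.77 ± 0.12, both with an edgeR adjusted p below 0.05. Apob, the protein that Mttp lipidates, had a log2 fold change of 0.37 ± 0.17 (edgeR adjusted p = 0.0944). With Ion Torrent STAR, 16 of the 68 genes rose and 27 fell.

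**Figure D4:**
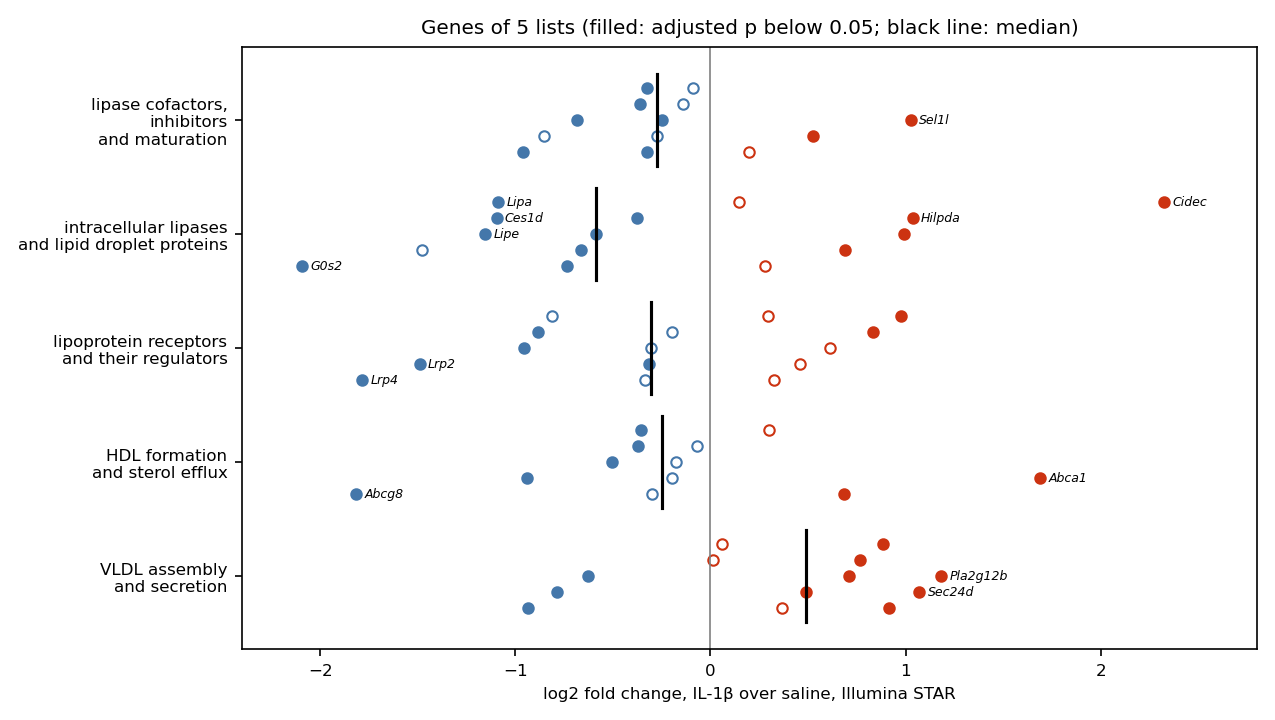
Log2 fold change of each tested gene in 5 lists, IL-1β over saline, Illumina STAR (filled, edgeR adjusted p below 0.05; names, called genes with a change above 1 in size; black line, median of the list). The VLDL list has its median above 0 at 0.49 and the other 4 lists below 0, from -0.59 to -0.25.

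The genes nearest to Mttp in pattern over the 10 Illumina STAR libraries were Dpp4, Fbxo3 and Sord. Likeness was the mean absolute difference in log2 CPM, each gene taken relative to its own untreated mean, over 9277 other genes. It was 0.085 for Dpp4, 0.095 for Fbxo3 and 0.095 for Sord, against a median of 0.68. Their log2 fold changes were -1.03, -1.27 and -1.23. Nearest to Scarb1 were Daxx at 0.058, Myo18a at 0.066 and Psmd3 at 0.077, against a median of 0.50. Their log2 fold changes were 0.71, 0.61 and 0.61. Treated libraries were among those compared, so like fold changes follow from the choice of genes. With Ion Torrent STAR they were -0.96 for Dpp4, -1.17 for Fbxo3 and -1.04 for Sord, against -1.04 for Mttp. There Daxx had 0.53, Myo18a 0.31 and Psmd3 0.28, against 0.51 for Scarb1.

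The treatment and the tissue were visible in other genes. All 10 acute phase genes rose (median log2 fold change 5.31), led by Lcn2 at 9.90 ± 0.26, Saa3 at 9.56 ± 0.18 and Saa2 at 8.58 ± 0.29 (log2, SE), the last with a close copy in Saa1. All 10 hepatocyte markers were detected, with 2 higher and 4 lower, and their sum was 73859 to 90011 CPM in treated and 98467 to 118739 CPM in untreated mice. Most of this sum was Alb, at 54581 ± 4082 CPM in treated and 78882 ± 6913 CPM in untreated mice (SD, n = 5). Hnf4a and Tat were the markers called higher. Of 10 neutrophil markers, 6 were tested and all 6 rose, with a sum of 43.5 to 102.8 CPM against 0.889 to 3.58 CPM. Among them, Ngp had 8 to 34 reads in treated and 0 in untreated mice. The other markers were too low to test. Ly6g had 0 to 2, Mpo 0 to 1 and Camp 1 to 3 reads in treated mice and 0 in untreated mice. Elane went the other way, with 0 reads in treated and 0 to 2 in untreated mice. Kupffer cell and macrophage markers summed to 85.9 to 195.4 CPM in treated and 149.5 to 259.2 CPM in untreated mice (1 of 10 higher and 3 lower, with 6 lower without ILB_9577 and 5 without ILB_9578). Endothelial markers summed to 128.2 to 204.5 and 169.9 to 253.4 CPM (2 of 10 higher, 4 lower), and stellate cell and fibroblast markers to 215.0 to 336.0 and 317.1 to 401.3 CPM (0 higher, 3 lower). Of 10 lymphocyte markers 7 were tested, with 0 higher and 2 lower and sums of 5.36 to 12.1 and 9.42 to 12.4 CPM. Of 10 adipocyte markers 4 were tested, with 2 higher and 1 lower (0 lower without ILB_9578, ILB_9583, UNT_9576, UNT_9580 or UNT_9584) and sums of 100.7 to 130.1 and 21.7 to 37.1 CPM, while Plin1 and Lep had 0 reads in every Illumina STAR library. Most of the adipocyte sum was Plin4, at 91.8 ± 14.4 CPM in treated and 13.2 ± 4.8 CPM in untreated mice (SD, n = 5), and Pparg was the marker called lower. The part of these cell types in the changes of the 9 genes was not tested.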

How the data were processed

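Liver RNA of 10 mice was sequenced on 2 platforms, which gave 20 libraries. The authors aligned reads to mm9 (NCBIM37) with STAR 2.5.1b, GSNAP or STAR followed by Bowtie2 2.2.9, with Ensembl gene models, took out rRNA and mitochondrial reads and drew equal numbers of gene-mapping reads from the libraries within a table with PORT. The deposited values are whole-number counts per gene, and whether Illumina counts are read pairs is not stated in the tables. All 60 count columns were used. Totals per library were 10568530 to 12008799 in Illumina and 12199528 to 16439683 in Ion Torrent tables. Since normalization was done table by table, IL-1β and saline were compared inside a table.

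A gene was tested where 5 or more of the 10 samples of any table had 5 or more reads (15578 genes). IL-1β was compared with saline by edgeR 4.0.16 (quasi-likelihood, TMM) with Benjamini-Hochberg adjustment over all genes, called at an adjusted p below 0.05, with the Illumina STAR table as the main one. The platform-by-treatment term was fitted to both STAR tables with the mouse as a block, since the labels give both libraries of an animal its number; deviations of paired libraries correlated at 0.230 to 0.805. Intervals are at the 95% level. Alternatives were DESeq2 1.42.0, limma-voom (limma 3.58.1), the rank-sum test (exact where counts were not tied) of the study's methods, other scalings, filters and tables, and leaving out each mouse. Leaving out mice in the Ion Torrent STAR table was added after seeing the data. R 4.3.3, Python 3.11.15, numpy 2.4.6, pandas 2.3.3 and matplotlib 3.10.9 were used.

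Positions and exon lengths are from the Ensembl-based annotation of NCBIM37. Named genes are the 9 genes, up to 3 called genes with the largest absolute log2 fold change per list, and the 3 genes nearest in pattern to the 2 genes with the largest called effect. Some genes that this rule takes are not reported here. Apob, Sar1a, Lrp8 and the single marker genes were named with values known. The members and lists were chosen with earlier results of these data known. The tests were tried on simulated data first. There the rank-sum test could call no gene, because too few genes were changed for its smallest possible p-value to pass the adjustment. That trial therefore cannot show how sensitive the rank-sum test is in the measured data.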

Additional observations from a re-analysis of the deposited data

Results flagged for a closer look

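In 36 groups of 5 mice (9 genes, both treatments, both STAR tables), 6 had a highest or lowest mouse far from the other 4, where chance alone would flag about 1 group in 20. The level of Lcat in IL-1β mouse ILB_9583 was flagged on both platforms, at 463.4 CPM with Illumina (next 394.9) and 742.4 CPM with Ion Torrent (next 523.2). Untreated mouse UNT_9584 was flagged for Scarb1 with Illumina, at 84.0 CPM against a next value of 123.0 CPM. The other flags were in untreated mice with Ion Torrent: Lcat in UNT_9574 at 447.4 CPM (next 490.3), Mttp in UNT_9576 at 407.8 CPM (next 380.2) and Lrp1 in UNT_9576 at 1034 CPM (next 1151).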

How the results depend on the processing

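The calls of Mttp and Scarb1 held under the 23 alternatives to the Illumina STAR fit (effects from -1.29 to -1.04 and from 0.49 to 0.75), and Lpl was called under none of its 23 (0.26 to 0.57). The rank-sum test did not call Scarb1 in the 3 Ion Torrent tables. Lipc was called lower by the rank-sum test (-0.40), with library totals only (-0.35) and on the re-sampled counts without a size term (-0.40). Lcat lost its call under the same 3 settings (0.16, 0.20 and 0.16) and in the Ion Torrent STAR, GSNAP and STAR + Bowtie2 tables (0.18, 0.16 and 0.16). So 1 gene was called higher instead of 2 under those 6 settings, and 2 lower instead of 1 under the first 3. Pltp turned positive with no filter on low counts (0.0022) and with Illumina STAR + Bowtie2 (0.024), and Lrp1 negative in the Ion Torrent tables (STAR -0.018, GSNAP -0.030, STAR + Bowtie2 -0.033). The rank-sum test called 11 pathway genes higher in place of 17.

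With 1 mouse left out, effects ranged from -0.28 to -0.16 for Lipc (called without UNT_9574, adjusted p = 0.0498 by edgeR), -0.28 to 0.16 for Lipg, 0.29 to 0.65 for Angptl4 (called without UNT_9584), -0.32 to 0.16 for Pltp and 0.21 to 0.44 for Lrp1 (called without UNT_9580, adjusted p = 0.0275 by edgeR). Genes called lower ranged from 1 to 2. In the Ion Torrent STAR table, effects ranged from -1.08 to -0.99 for Mttp and 0.41 to 0.61 for Scarb1 (called each time), -0.40 to -0.031 for Lipg, 0.058 to 0.23 for Lcat, -0.62 to -0.012 for Pltp and -0.11 to 0.092 for Lrp1, and Angptl4 was also called without ILB_9577 (0.57, adjusted p = 0.0495 by edgeR).

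For the platform term, no gene of the 9 was called in 126 alternative fits, with a smallest adjusted p of 0.180 by edgeR or limma-voom. With no replicate block, that is without pairing the libraries of a mouse, the term of Lrp1 was -0.33 (adjusted p = 1 by edgeR). Over all genes the term called 1 gene, 0 without the block (244 at an unadjusted p below 0.05) or with limma-voom (1272), 10 with GSNAP and 12 with STAR + Bowtie2. The term of Angptl4 turned to -0.00080 with GSNAP, and with 1 mouse left out that of Lpl ranged from -0.029 to 0.095, of Lrp1 from -0.47 to -0.22, of Pltp from -0.38 to -0.12, of Scarb1 from -0.24 to -0.11, of Lcat from -0.22 to -0.091 and of Mttp from 0.026 to 0.14. The cause of these shifts was not tested. The 5 mice per group leave wide intervals for Lipg, Lpl, Angptl4 and Pltp, and intervals cover the spread between these mice only.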
